A study of Mus musculus with 12 samples.

Results

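The 17 genes described here had low array values in untreated mouse fibroblasts and clearly higher values after 96 h of treatment with difluoromethylornithine (DFMO). The drug blocks ornithine decarboxylase, which forms putrescine, and cells given it run short of polyamines, small cations that bind nucleic acids. The cells were NIH3T3, an established mouse fibroblast line. The series text describes collection of the G1 fraction by sorting, without the drug (0 h) and after 12, 24, 48 and 96 h in 1 mM DFMO, and measurement of total RNA on whole-transcript Affymetrix arrays. The untreated and the 24 h group had 3 arrays each, and the 12 h, 48 h and 96 h groups 2 each, all labelled as biological replicates. Per the labels the drug went on a day after seeding. All groups share the line, the medium and the sort, and differ in exposure and in hours since the drug was added. Untreated cells were measured at 0 h only, so exposure and hours in culture cannot be told apart.

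The genes were chosen by their values on the untreated and 96 h arrays. A gene entered when the mean of its log2 values was below 4.5 in untreated cells, its 96 h mean was at least 1.5 higher, and both 96 h arrays lay above all 3 untreated arrays. Of 19938 genes represented by 1 transcript cluster each, 10835 had an untreated mean below 4.5 and 20 met the values, or 0.1% of all genes and 0.185% of those low in untreated cells. At any untreated mean, 123 genes (0.617%) were higher by 1.5 or more at 96 h. Leaving out named genes, collagens, histones and interferon genes removed Dcn, Ces2e and Ptprv and left 17. Because the untreated and 96 h arrays chose these genes, their difference between those groups is a description and was not tested. The rule does not use the arrays at 12, 24 and 48 h, and the tests below use only these 7 arrays, although the rule was written with earlier results of all arrays known.

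Array values do not reach zero, since background signal stays in them, and a low value can mean a transcript that is absent or one that is weakly present. The label of genes switched on from the floor was therefore checked against transcripts that fibroblasts should lack. Of 20 leukocyte markers 19 were measured, and their untreated means ran from 3.30 to 4.39 with a median of 3.64. The untreated means of the 17 genes ran from 3.82 to 4.46 with a higher median of 4.30. Of the 17, 15 lay above Cd68 (3.97), the second highest of the markers other than Lyz2, and 4 lay above the highest, Cd14 (4.39). The 17 genes were low by the limit used, but not as low as most of these markers. The background of each single cluster is unknown, so absence in untreated cells is not shown. A fold change that starts near the background is too small for the same reason. The 8 fibroblast markers fixed for the check (Col1a1, Col1a2, Col3a1, Vim, Thy1, Fn1, Pdgfrb and S100a4) had untreated means from 8.30 to 12.30. In RNA from many cells, a higher level per cell and a larger share of expressing cells cannot be told apart.

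The 17 genes have no common pathway by name, and they are described by role. Secreted proteins are Pappa, a metalloprotease that cuts insulin-like growth factor binding proteins and so frees the growth factor, Slpi, an inhibitor of neutrophil serine proteases, and Lyz2, the lysozyme of macrophages. Membrane proteins are Thsd7a, a large protein with thrombospondin repeats known from kidney podocytes, Tmem150a, which acts with the kinase complex that makes phosphatidylinositol 4-phosphate at the plasma membrane, Atp6v0e2, a subunit of the proton pump that acidifies lysosomes, and Clec2d, a C-type lectin-like ligand of a natural killer cell receptor. Bbs4 and Hoatz act in cilia, Bbs4 in the coat complex (the BBSome) that carries membrane proteins into and out of the cilium. Mgmt removes alkyl groups from guanine in DNA and is used up by each repair. Bdh2 is a cytosolic short-chain dehydrogenase, and Zfp113 and Zfp661 encode zinc finger proteins. Lrrc51 encodes a leucine-rich repeat protein, and Magef1, Gm5617 and 4632415L05Rik complete the set. RefSeq (GRCm38.p6) lists 15 of the 17 as protein coding and 2, Magef1 and 4632415L05Rik, as transcribed pseudogenes. Transcribed pseudogenes make up 0.838% of all genes measured and 1.31% of those with an untreated mean below 4.5.

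RefSeq start regions were available for 14 of the 17 genes, and 4 are shown because they span the range of base composition and belong to genes on which the results turn. Each is the 250 bases before the transcription start, written 5′ to 3′ on the gene's strand in GRCm38.p6. Capitals mark GGGCGG, the core of a GC box, TATAAA or CCAAT, on either strand. Tmem150a and Bbs4 had called rises at 48 h, Thsd7a had the largest difference at 96 h, and Lyz2 is a marker of another cell type.
Tmem150a: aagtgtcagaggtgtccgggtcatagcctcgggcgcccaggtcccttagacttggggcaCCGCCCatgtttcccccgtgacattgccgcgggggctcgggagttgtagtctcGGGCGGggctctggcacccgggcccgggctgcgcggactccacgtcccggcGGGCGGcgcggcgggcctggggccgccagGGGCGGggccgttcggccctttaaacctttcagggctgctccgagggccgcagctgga
Thsd7a: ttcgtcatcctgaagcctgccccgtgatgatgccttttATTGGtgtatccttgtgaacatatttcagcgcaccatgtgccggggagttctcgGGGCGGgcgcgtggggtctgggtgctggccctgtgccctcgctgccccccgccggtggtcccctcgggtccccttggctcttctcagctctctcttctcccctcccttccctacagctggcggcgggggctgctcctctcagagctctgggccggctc
Bbs4: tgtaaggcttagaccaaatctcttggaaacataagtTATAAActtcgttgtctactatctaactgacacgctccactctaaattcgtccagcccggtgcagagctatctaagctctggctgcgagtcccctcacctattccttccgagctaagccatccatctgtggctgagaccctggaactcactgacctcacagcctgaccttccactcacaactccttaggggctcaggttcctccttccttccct
Lyz2: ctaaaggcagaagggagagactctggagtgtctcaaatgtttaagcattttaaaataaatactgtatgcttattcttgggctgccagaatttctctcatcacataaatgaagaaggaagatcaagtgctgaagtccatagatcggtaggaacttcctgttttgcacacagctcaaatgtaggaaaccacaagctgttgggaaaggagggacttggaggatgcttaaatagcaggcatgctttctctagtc
The Tmem150a region lies at chr6:72355233-72355482 (plus strand), that of Thsd7a at chr6:12749254-12749503 (minus), that of Bbs4 at chr9:59353509-59353758 (minus) and that of Lyz2 at chr10:117282273-117282522 (minus). Over the full window of 300 bases, from 250 before to 50 after the start, Tmem150a had a G and C content of 74.7% and 35 CpG pairs, Thsd7a 66.7% and 19, Bbs4 53% and 11, and Lyz2 44.3% and 1. The 17 genes thus include both CpG-dense and CpG-depleted starts. A window with more than 50% G and C and a ratio of observed to expected CpG above 0.6 was found in 5 of 14 genes (35.7%), against 49.5% of 15563 genes with a window and 25.7% of the 8167 that were low in untreated cells.

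Of 7 short motifs searched on both strands of the 300-base window, none was held by more than 6 of the 14 genes. GGGCGG was in 6 (42.9%, against 49.9% of all genes), with 4 matches in Tmem150a alone, at -191, -138, -87 and -58 from the start. CCAAT was in 5 (35.7%, against 38.3%). TATAAA was in Bbs4 only, 1 of 14 against 12.1% of all genes, and began at -214 from the start. TGANTCA was in Zfp661 only (6.97% of all genes) and CACGTG in Slpi only (8.4%). TGATGNAA and GTAAACA were in 0 of 14, against 3.17% and 3.03% of all genes. Within a motif, overlapping matches were each counted, and matches of different motifs were allowed to overlap. These shares lie near those of all genes and describe letters in a window only.

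At 48 h the genes already stood above their earlier treated levels, on arrays that the rule does not use. All 17 had a higher mean at 48 h than at 24 h, by 0.22 to 1.19 log2 units with a median of 0.45, against a median of -0.01 over all 19938 genes and also over the 10835 low genes. Both 48 h arrays lay above all 5 arrays of 12 and 24 h in 13 of the 17, against 8.6% of all genes and 4.61% of low genes. In 0 of the 17 both lay below, against 10.4% of all genes. The exceptions were Thsd7a, Bdh2, Lyz2 and Pappa. Among low genes only 1.4% (152 genes) had a difference as large as that of the lowest of the 17, and 0.212% (23 genes) one as large as their median. Of the 20 low genes with the largest difference from 24 to 48 h, 8 belong to the set. The 17 were chosen for signal at 96 h, while low genes can include transcripts that stay at background and cannot differ. How much of the contrasts with low genes, here and below, comes from that was not tested.

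Single genes passed the test rarely. In a limma fit of the 7 arrays over all 19938 genes, with p-values adjusted by Benjamini and Hochberg, Tmem150a and Mgmt were called higher at 48 h than at 24 h at an adjusted p under 0.05. That is 2 of 17, against 0.145% of all genes called higher and 0.0369% of low genes. With the 12 h and 24 h arrays pooled as the earlier level, Bbs4 and Hoatz were called as well, so 4 of 17, against 0.607% of all genes and 0.12% of low genes. Called lower were 0 of the 17 in either comparison, against 0.446% and 1.11% of all genes. An unadjusted p under 0.05 with a higher value at 48 h was reached by 12 genes against 24 h and by 13 against 12 and 24 h together, where 4.93% and 6.56% of all genes reached it.

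The calls rest on few arrays. With either 48 h replicate left out, the lone array is assumed to vary like those of the other groups, and limma called 0 of 17 and 0 of all genes in both comparisons, with 1385 to 1903 of all genes at an unadjusted p under 0.05. The differences from 24 to 48 h were then 1.21 and 1.17 in Tmem150a and 0.78 and 0.64 in Mgmt, near the 1.19 and 0.71 with both. Without 24 h replicate 3 the calls against 24 h fell from 2 to 0. Against 12 and 24 h together, 2 of the 4 calls remained, Tmem150a and Mgmt, without 12 h replicate 1, 12 h replicate 2, 24 h replicate 1 or 24 h replicate 2. Without 24 h replicate 3 the genes called were these and Atp6v0e2. The differences themselves kept their sign in all 17 genes against 24 h without each of the 7 arrays in turn. Leaving out a 12 h array cannot change the difference against 24 h, so only the 24 h and 48 h arrays bear on this. Against 12 and 24 h together 16 of 17 remained higher without 12 h replicate 1. An alternative that was not planned left out both 12 h replicate 2 and 24 h replicate 3, a pair chosen after an earlier look at these data. The deviations of these arrays from their group means correlated with r of 0.209. This pair did not stand out, since same-number arrays of 24 and 48 h gave 0.35 and 0.419. The 12 h group then held 1 array. The median difference of the 17 genes from 24 to 48 h was then 0.54, against 0.45 with all 7 arrays.

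**Figure D1:**
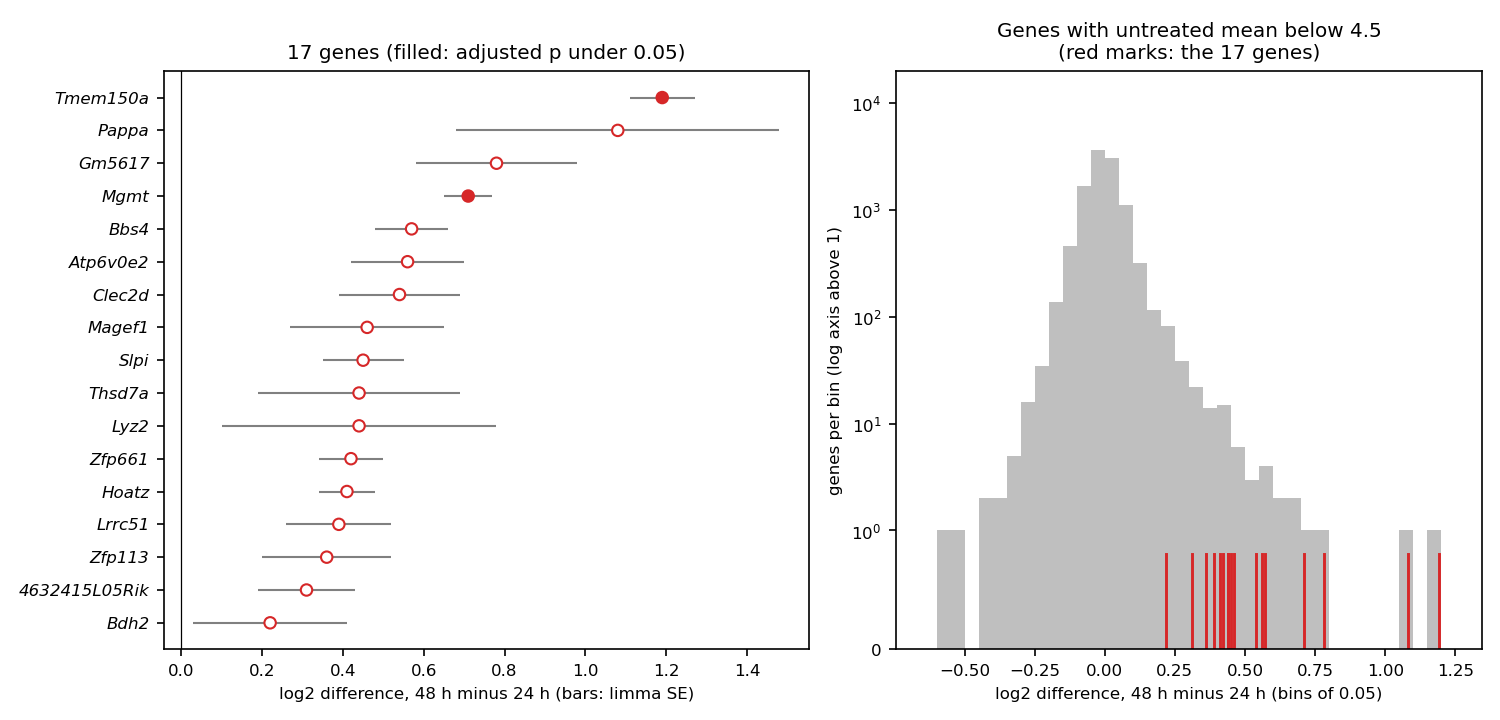
The left panel plots the log2 difference between 48 h and 24 h for each of the 17 genes, with limma standard errors as bars and filled points for an adjusted p under 0.05. The right panel counts all genes with an untreated mean below 4.5 by the same difference in bins of 0.05, on an axis that is logarithmic above 1, with a red mark for each of the 17. All 17 lie to the right of zero, from 0.22 for Bdh2 to 1.19 for Tmem150a.

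Between 12 and 24 h no change was called. From 12 to 24 h the 17 genes differed by -0.42 to 0.14 log2 units with a median of -0.05. By limma 0 of 17 and 0 of 19938 genes were called between these times (0%), with 0 of the 17 and 354 of all genes at an unadjusted p under 0.05. All 5 arrays of 12 and 24 h lay above every untreated array in 3 genes, Tmem150a, Bbs4 and Zfp113, and below in 1, Hoatz. Against the untreated arrays, on which the genes had been chosen for low values, no test was made, and the differences ran from -0.17 to 0.56 at 12 h and from -0.27 to 0.42 at 24 h. The largest at 12 h was that of Lyz2 and rested on 1 array, and the largest at 24 h was that of Zfp113.

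Most of the distance to the 96 h level was covered after 48 h. The difference from untreated cells ran from 0.22 to 1.60 at 48 h (median 0.53) and from 1.53 to 2.88 at 96 h (median 1.74, or 3.35-fold). The share of the 96 h difference already present at 48 h ranged from 9.4% in Hoatz to 58.8% in Tmem150a, with a median of 30.3%. In 15 of 17 genes the step from 48 to 96 h was larger than that from untreated to 48 h, the exceptions being Tmem150a and Bbs4. These figures use the arrays that chose the genes and are given without a test.

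**Figure D2:**
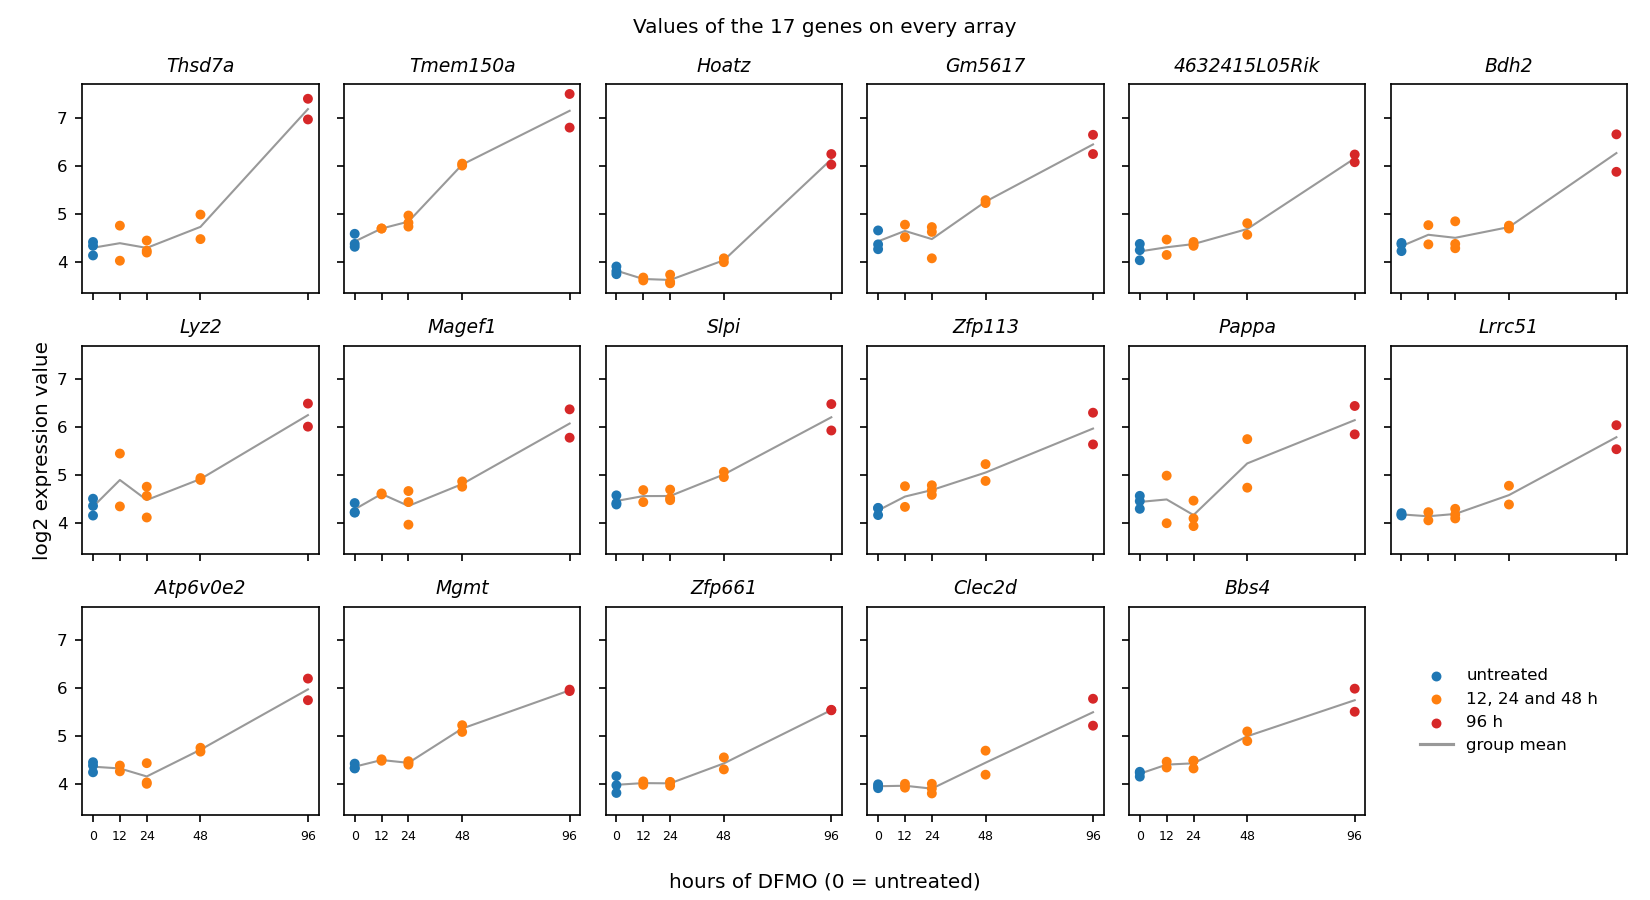
Each panel plots the log2 value of 1 of the 17 genes on all 12 arrays against hours of DFMO, with untreated arrays in blue, 12, 24 and 48 h in orange, 96 h in red and a grey line through the group means. Group means differ from the untreated mean by -0.17 to 0.56 at 12 h and by -0.27 to 0.42 at 24 h. At 48 h they lie above it in all 17 genes, by 0.22 to 1.60. Values are highest at 96 h, where replicate arrays differ by 0.01 to 0.77.

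Among the membrane proteins, Tmem150a (cluster 10539111) moved earliest. Its untreated arrays read 4.38, 4.32 and 4.59, the 12 h arrays 4.70 and 4.70, and the 24 h arrays 4.97, 4.74 and 4.82. It then stood at 6.01 and 6.05 at 48 h and reached 7.50 and 6.80 at 96 h. The 5 arrays of 12 and 24 h all lie above the untreated ones by a small margin, and the 48 h arrays lie above them by more than 1 unit. Tmem150a rose by 1.19 ± 0.08 from 24 to 48 h (SE, 2.28-fold, limma adjusted p = 0.0101, n = 2 against 3), and over the alternatives its adjusted p ran from 0.00222 to 0.146. Against 12 and 24 h together it rose by 1.26 ± 0.07 (limma adjusted p = 0.00456). At 96 h it was 2.72 ± 0.17 above untreated cells. RefSeq places Rnf181, a ubiquitin ligase gene, across part of the Tmem150a locus. The Rnf181 cluster went from 8.45 to 9.68 on average between untreated and 96 h, and whether its RNA adds to the Tmem150a value was not tested.

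The partners of Tmem150a at the plasma membrane had no common direction at 96 h. They were listed after the 17 genes were known, so their values are described only. Pi4ka, the kinase itself, differed by 0.27 ± 0.13 between 96 h and untreated cells, and Efr3a, its membrane anchor, by -0.04 ± 0.05. Of the scaffold genes, Ttc7 was lower by this measure (-1.20 ± 0.20) and Fam126b higher (1.1 ± 0.20). The family members Tmem150b and Tmem150c stood at 3.63 and 3.68 in untreated cells and differed by -0.08 and 0.10 at 96 h.

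Thsd7a (cluster 10543145) had the largest difference at 96 h and moved late. Its untreated arrays read 4.42, 4.34 and 4.14, the 12 h arrays 4.76 and 4.03, the 24 h arrays 4.2, 4.24 and 4.45, and the 48 h arrays 4.99 and 4.48. At 96 h it read 6.97 and 7.40. One 48 h array lies within the range of the 12 h arrays, and only the 96 h arrays are set apart. The difference from 24 to 48 h was 0.44 ± 0.25 (limma adjusted p = 0.665), and that from untreated to 96 h was 2.88 ± 0.23 (7.38-fold). Its paralog Thsd7b stayed between 3.29 and 3.41 on the 96 h arrays, against 3.31 to 3.38 on the untreated ones.

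Atp6v0e2 (cluster 10538082) encodes a minor form of the e subunit in the membrane part of the proton pump. Its untreated arrays read 4.39, 4.25 and 4.46, the 12 h arrays 4.27 and 4.39, the 24 h arrays 4.04, 4.01 and 4.44, the 48 h arrays 4.68 and 4.76, and the 96 h arrays 6.20 and 5.75. The 48 h arrays lie just above every earlier array. The difference from 24 to 48 h was 0.56 ± 0.14 (limma adjusted p = 0.201), and that from untreated to 96 h was 1.60 ± 0.15.

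Other subunits of the pump were also higher at 96 h. Of 23 V-ATPase genes measured beside Atp6v0e2, a list made after the 17 genes were known, 14 had both 96 h arrays above every untreated array and 2 had both below, against 23% and 21.4% of all genes. Their median difference was 0.45, against 0.00 over all genes. Only 6 of the 23 had an untreated mean below 4.5, and among all genes that low 12.8% had both 96 h arrays above. The shares over all genes are thus not matched for the untreated level of this list. The common e subunit, Atp6v0e, differed by 0.68 ± 0.06 from an untreated mean of 8.67. The largest difference was that of Atp6v1f, 1.93 ± 0.31, and Tcirg1, an a subunit, was lower (-0.65 ± 0.09). Of the 6 forms with an untreated mean below 4.5, Atp6v0d2, Atp6v1b1, Atp6v1c2 and Atp6v1g3 differed by -0.02 to 0.02 with overlapping arrays, Atp6v1e2 by 0.12 with both 96 h arrays above, and Atp6v0a4 by -0.13 with both below. In the list of lysosomal hydrolases and membrane proteins, 20 of 35 measured genes were called higher at 96 h and 0 lower. Calls are against untreated cells (limma fit of all 12 arrays, adjusted p under 0.05). The median difference was 0.57. Of all genes 11.8% were called higher and 10.1% lower. This list was chosen with earlier results of these data known. Only 10 of its 35 genes had an untreated mean below 4.5, so here too the shares are not matched for level.

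Clec2d (cluster 10542156) read 4.0, 3.96 and 3.92 on the untreated arrays and 3.81 to 4.01 on the 5 arrays of 12 and 24 h. It stood at 4.70 and 4.2 at 48 h and reached 5.22 and 5.78 at 96 h. The earlier arrays form a tight group, and all 4 later arrays lie above it. The difference from 24 to 48 h was 0.54 ± 0.15 (limma adjusted p = 0.247). The neighbours of its family, Clec2e, Clec2g, Clec2h and Clec2i, differed by -0.08 to 0.12 between untreated and 96 h, with no separation of the arrays.

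Of the ciliary genes, Bbs4 (cluster 10594144) read 4.16, 4.24 and 4.26 in untreated cells, and its 12 h arrays read 4.35 and 4.47, the 24 h arrays 4.49, 4.33 and 4.49, the 48 h arrays 5.10 and 4.90, and the 96 h arrays 5.51 and 5.99. Successive groups from 24 h on do not overlap. The difference was 0.57 ± 0.09 from 24 to 48 h (limma adjusted p = 0.0718) and 0.58 ± 0.08 against 12 and 24 h together (limma adjusted p = 0.0351). Over the alternatives the latter p ran from 0.0169 to 0.225.

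Among 9 other genes of the BBSome and its assembly, listed after the 17 were known, 5 had both 96 h arrays above every untreated array and 2 had both below, against 23% and 21.4% of all genes. Only 1 of the 9 had an untreated mean below 4.5, so the shares over all genes are not matched for untreated level. Bbs1 and Bbs7, subunits of the coat, differed by 0.82 ± 0.08 and 0.54 ± 0.13, and Bbs10, a chaperonin-like assembly factor, by 0.93 ± 0.09. The subunit gene Ttc8 was lower (-0.35 ± 0.10), as was the assembly factor Bbs12 (-0.34 ± 0.17).

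Hoatz (cluster 10593460) read 3.75, 3.81 and 3.91 in untreated cells. It read 3.62 and 3.68 at 12 h and 3.56, 3.59 and 3.74 at 24 h, so that all 5 of these arrays lie below the untreated ones. It stood at 4.08 and 4.0 at 48 h and reached 6.03 and 6.25 at 96 h, and 9.4% of its difference from untreated cells was present at 48 h. The difference was 0.41 ± 0.07 from 24 to 48 h (limma adjusted p = 0.0873) and 0.40 ± 0.07 against 12 and 24 h together (limma adjusted p = 0.0494, over the alternatives from 0.00673 to 0.318). The RefSeq locus of Hoatz overlaps Btg4 and the microRNA genes Mir34b and Mir34c, whose own clusters stood between 3.33 and 3.97 in untreated cells and differed by 0.07, 0.16 and 0.25 at 96 h.

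**Figure D3:**
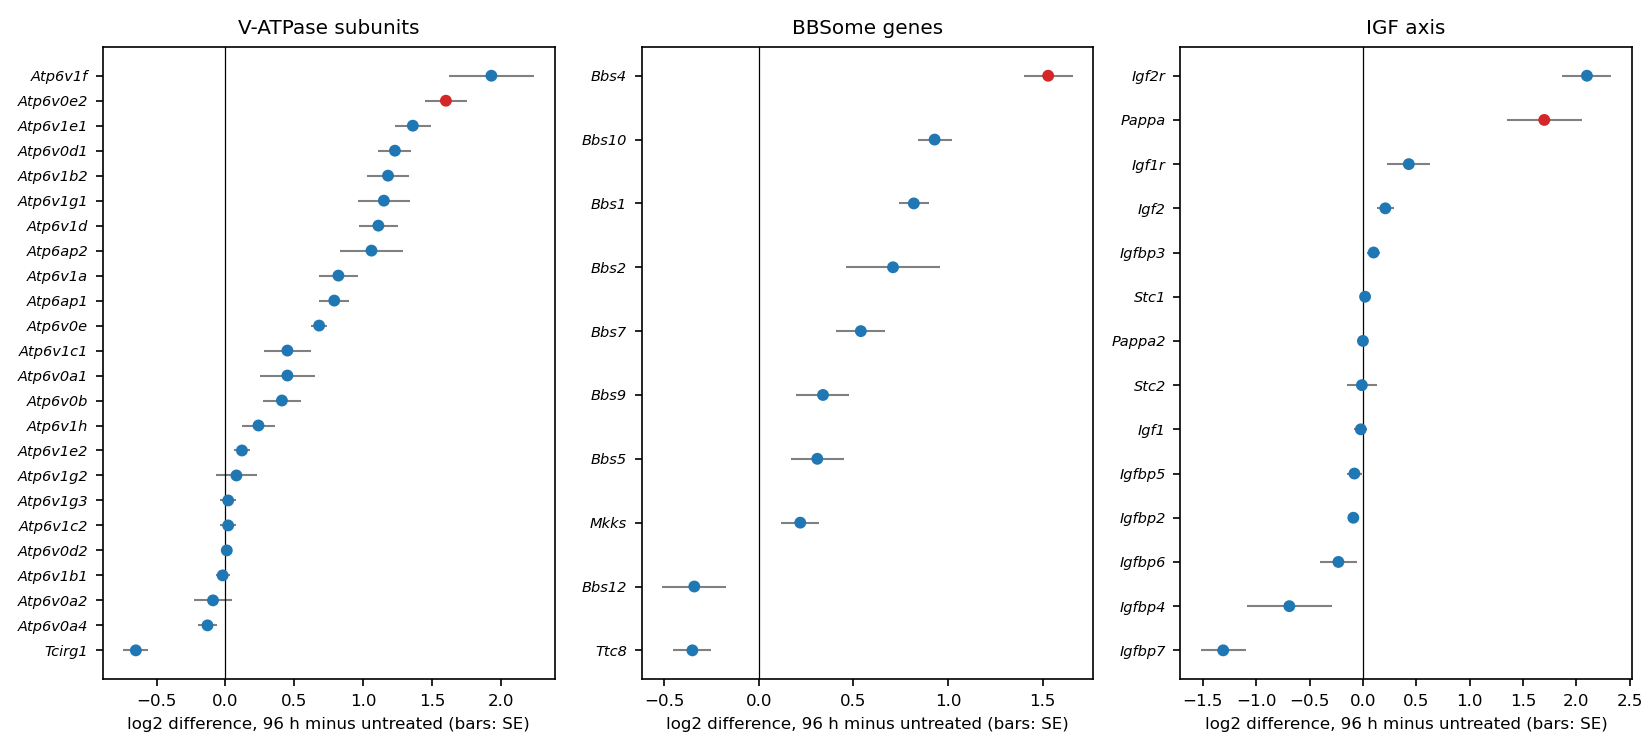
The panels plot the log2 difference between 96 h and untreated cells, with limma standard errors as bars, for V-ATPase subunits, BBSome genes and the insulin-like growth factor axis, each with its member of the 17 in red. Most V-ATPase genes with a clear untreated signal lie to the right of zero, BBSome genes lie on both sides, and in the growth factor axis Igf2r and Pappa lie farthest to the right.

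Mgmt (cluster 10558441), the DNA repair gene, had the smallest standard error of the 17. Its untreated arrays read 4.34, 4.33 and 4.43, the 12 h arrays 4.52 and 4.49, the 24 h arrays 4.41, 4.45 and 4.48, the 48 h arrays 5.09 and 5.23, and the 96 h arrays 5.97 and 5.94. It went up in 2 steps of similar size, 0.79 ± 0.06 from untreated to 48 h and 0.80 ± 0.06 from 48 to 96 h. Mgmt rose by 0.71 ± 0.06 from 24 to 48 h (1.64-fold, limma adjusted p = 0.0174, n = 2 against 3), and over the alternatives its adjusted p ran from 0.0012 to 0.168. It was no longer called without any 1 of the 24 h arrays (limma adjusted p = 0.0678, 0.0602 and 0.0735) or of the 48 h arrays (0.106 and 0.168), while the difference stayed between 0.64 and 0.78. Of other genes for the repair of alkylated DNA, Alkbh3 differed by 0.74 ± 0.09 between 96 h and untreated cells and Alkbh2 by -0.09 ± 0.09. The glycosylase gene Mpg differed by -0.12 ± 0.10.

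Bdh2 (cluster 10496251), the other enzyme, read 4.37, 4.23 and 4.40 in untreated cells and 5.88 and 6.66 at 96 h. Its 48 h arrays, 4.70 and 4.76, lie within the range of the 12 and 24 h arrays, 4.29 to 4.85. Its difference from 24 to 48 h, 0.22 ± 0.19 (limma adjusted p = 0.837), was the smallest of the 17. The 96 h replicates differed by 0.77, the widest gap of the set. The mitochondrial relative Bdh1 differed by 0.04 ± 0.06.

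Of the secreted proteins, Pappa (cluster 10505489) varied most between replicates. Its untreated arrays read 4.30, 4.46 and 4.57, the 12 h arrays 4.99 and 4.0, the 24 h arrays 3.94, 4.10 and 4.47, the 48 h arrays 5.75 and 4.74, and the 96 h arrays 6.44 and 5.85. The 48 h replicates lie 1.01 apart, and 1 of them is within the range of the 12 h arrays. The difference from 24 to 48 h was 1.08 ± 0.40 (limma adjusted p = 0.4), second in size to that of Tmem150a, and without 48 h replicate 1 it was 0.57.

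The genes around Pappa in the growth factor axis were listed after the 17 were known. Of 13 measured, 3 had both 96 h arrays above every untreated array and 4 had both below, against 23% and 21.4% of all genes. Igfbp4, the main substrate of Pappa, differed by -0.69 ± 0.40 from an untreated mean of 7.79, and Igfbp7 by -1.31 ± 0.21. The receptor genes Igf1r and Igf2r differed by 0.43 ± 0.20 and 2.10 ± 0.23. The inhibitor genes Stc1 and Stc2 differed by 0.02 and -0.01, and the ligand genes Igf1 and Igf2, at 3.79 and 3.51 in untreated cells, by -0.02 and 0.21.

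Slpi (cluster 10489463) read 4.58, 4.42 and 4.39 in untreated cells, 4.69 and 4.44 at 12 h, and 4.52, 4.70 and 4.48 at 24 h. It stood at 5.07 and 4.96 at 48 h and reached 5.93 and 6.48 at 96 h, each time above every earlier array. The difference was 0.45 ± 0.10 from 24 to 48 h (limma adjusted p = 0.171) and 0.45 ± 0.09 against 12 and 24 h together (limma adjusted p = 0.0943).

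Lyz2 (cluster 10372648) is a marker of macrophages. Its untreated arrays read 4.36, 4.16 and 4.51, the 12 h arrays 4.35 and 5.45, the 24 h arrays 4.12, 4.57 and 4.76, the 48 h arrays 4.90 and 4.94, and the 96 h arrays 6.01 and 6.49. Replicate 2 at 12 h stands apart and lies above both 48 h arrays. The difference from 24 to 48 h was 0.44 ± 0.34 (limma adjusted p = 0.8). Lyz1, a close paralog whose RNA could share probes with it, stood at 3.74 in untreated cells and differed by 0.37 ± 0.16 at 96 h.

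The other leukocyte markers stayed at their low level. Of the 18 measured besides it, 0 were called at 48 h against 24 h in either direction and 0 at 96 h against untreated cells, and their median difference at 96 h was 0.00. Their summed level, as a log2 value, lay between 7.89 and 7.91 on untreated arrays and between 7.87 and 7.89 at 96 h. Ptprc, the pan-leukocyte phosphatase, stood at 3.36 in untreated cells, and the macrophage genes Csf1r, Adgre1 and Cd68 differed by 0.00, 0.00 and -0.19 at 96 h. Markers of other lineages were checked in the same way, and are to be read against the 11.8% of all genes called higher and 10.1% called lower at 96 h. These shares are not matched for untreated level. At 96 h against untreated cells, 2 of 15 epithelial and endothelial markers were called higher and 1 lower, 1 of 12 muscle markers higher and 0 lower, 0 of 10 adipocyte markers and 0 of 8 bone and cartilage markers in either direction, and 0 of 11 neuron and glia markers higher and 1 lower. At 48 h against 24 h 0 members of these lists were called. Of the fibroblast markers 1 was called higher (Fn1, 0.71) and 5 lower at 96 h, with Thy1 lowest at -2.35.

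Zfp661 (cluster 10487433) had group means of 3.99 ± 0.17 (SD, n = 3) in untreated cells, 4.02 at both 12 h and 24 h, 4.44 at 48 h and 5.54 at 96 h, and its 96 h arrays differed by 0.01. Zfp113 (cluster 10534966) had means of 4.27 ± 0.09 (SD, n = 3), 4.56, 4.69, 5.05 and 5.97 in the same order. From 24 to 48 h Zfp661 differed by 0.42 ± 0.08 (limma adjusted p = 0.122) and Zfp113 by 0.36 ± 0.16 (limma adjusted p = 0.521). Genes with a Zfp symbol make up 2 of 17 here and 1.76% of all genes measured.

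The remaining genes also had their highest values at 96 h. Lrrc51 (cluster 10566043) lay between 4.06 and 4.30 on all 8 arrays up to 24 h, at 4.78 and 4.39 at 48 h, and at 6.04 and 5.54 at 96 h. Magef1 (cluster 10438570) read 4.22, 4.23 and 4.42 in untreated cells, 4.87 and 4.76 at 48 h, and 6.37 and 5.78 at 96 h. Gm5617 (cluster 10585097) read 4.66, 4.27 and 4.37, then 5.23 and 5.29, and 6.25 and 6.65 at these times, and the pseudogene 4632415L05Rik (cluster 10490986) 4.38, 4.04 and 4.25, then 4.57 and 4.81, and 6.08 and 6.24. In all of these both 48 h arrays lay above every earlier treated array. Their differences from 24 to 48 h were 0.39 ± 0.13, 0.46 ± 0.19, 0.78 ± 0.20 and 0.31 ± 0.12, with limma adjusted p of 0.345, 0.493, 0.216 and 0.403.

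Replicates at 96 h had no common order across the genes. The second replicate was higher in 10 genes and the first in 7, with gaps of 0.01 to 0.77 and a median gap of 0.48. At 48 h the second was higher in 9 and the first in 8, with a median gap of 0.14. The gap between the lowest 96 h array and the highest untreated array was 1.22 to 2.55, a separation that the rule asks for.

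The thresholds cut through a continuous range. Just inside the limit on the rise were Bbs4 (1.53), Clec2d (1.54) and Zfp661 (1.56), and just outside were Cyp4f13 (1.497), Tnr (1.48) and Armc7 (1.39). Just inside the limit on the untreated mean were Slpi (4.46), Pappa (4.44) and Gm5617 (4.43), and just outside were Zfp35 (4.56), Fas (4.56) and Airn (4.56), with rises of 1.90, 1.65 and 1.97. No gene met both limits and failed on overlapping arrays.

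**Figure D4:**
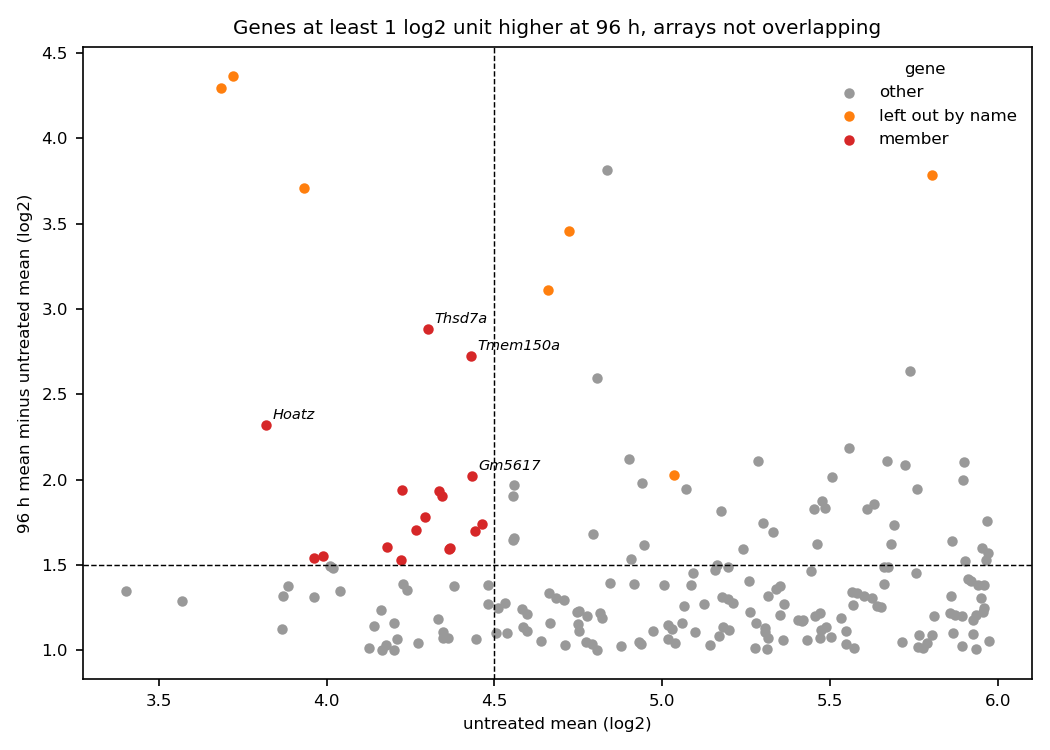
Each point is a gene whose 96 h arrays all lay above the untreated ones by a mean of at least 1 log2 unit, plotted by its untreated mean (below 6) and that rise, with the 17 genes in red and genes left out by name in orange. The dashed lines mark the limits of 4.5 and 1.5, and points continue across both of them.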

How the data were processed

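RNA of sorted G1 NIH3T3 cells was measured on 12 arrays. The authors deposited 1 table of log2 values, 1 per transcript cluster and array, and per the submitters' processing notes these came from RMA and Partek, whose versions were not stated there. RMA as a method includes quantile normalisation, which would hide a shift of all transcripts, and array medians lay between 4.13 and 4.20. Of 35399 clusters, 21789 carry 1 symbol in the platform annotation, 1621 several and 11989 none listed. Identifiers of 21698 were found in RefSeq (GRCm38.p6), and 0 symbols changed. The cluster with the highest mean represented a gene, and none of the 17 genes had a second one. Array coordinates were not used, since their genome build was not stated.

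The fit (limma 3.58.1, R 4.3.3, lmFit and eBayes) held the 7 arrays of 12, 24 and 48 h with 1 mean per group. All p-values are two-sided, adjusted over 19938 genes, and called under 0.05. Standard errors against untreated or 96 h arrays come from a fit of all 12. The fit was tested on simulated data. The array number limits the precision, and p-values measure the spread between arrays that the labels call biological replicates. Alternatives were a replicate block, array weights, other eBayes settings, centring, filters and single arrays left out. Figures used matplotlib 3.10.9.

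The members, the gene lists and the rule for named genes were chosen with earlier results of these data known. That rule named the 12 genes with the largest difference at 96 h, genes called at 48 h against 24 h or at 24 h against 12 h, genes with a second cluster, members of fixed lists, and the 3 genes on each side of a threshold, with the others in groups by role. Partner genes were listed after the 17 were known and got no test. Of 16 lists fixed, those of cell markers and lysosome stand in the report and the others under the other observations.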

Additional observations from a re-analysis of the deposited data

Results flagged for a closer look

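Outside the genes analysed, 6 of the 13610 transcript clusters with several symbols or none listed met the same values, that is an untreated mean below 4.5 and 96 h arrays set apart by at least 1.5. None of these 6 clusters carries a symbol in the annotation used, and whether they measure genes is not known from it. Their differences at 96 h ran from 1.59 to 2.52 log2 units, and from 24 to 48 h they differed by -0.05 to 0.45.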

How the results depend on the processing

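The sign of the difference from 24 to 48 h was the same in all 252 combinations of a gene and an alternative, with 12 losing and 5 gaining a call. Several of these alternatives change the p-value but cannot change the difference, so its sign was fixed in advance. They are all 12 arrays in 1 fit, trend and robust eBayes, all clusters tested, the filter on low values and a 12 h array left out. The median difference of the 17 genes, 0.45, ran from 0.43 to 0.54 without single arrays and was 0.54 with the replicate block. The count of genes called higher at 48 h against 24 h was 2 and became 4 with trend and robust eBayes, 4 with array weights, 3 with all 12 arrays in 1 fit, 0 with the replicate block and 0 without 12 h replicate 2 and 24 h replicate 3. It ran from 0 to 2 without single arrays. Against 12 and 24 h together the count was 4 and became 0 with the replicate block, 2 with all clusters tested, 6 with trend and robust eBayes, 5 with all 12 arrays in 1 fit and 0 without the same pair of arrays, and ran from 0 to 3 without single arrays. With the block Tmem150a differed by 1.18 (adjusted p = 0.107) and Mgmt by 0.73 (adjusted p = 0.117), and limma called 0 of all genes in either comparison, with 2553 and 3120 at an unadjusted p under 0.05. The replicate numbers were not shown to pair the arrays. In deviations from group means, same-number pairs correlated with r of 0.35 and 0.419 between 24 and 48 h. They gave 0.12 and 0.12 between 12 and 48 h, and 0.054 and -0.149 between 12 and 24 h. In a group of 2 arrays the deviations mirror each other, so the 2 values of 0.12 are 1 value by construction. Different-number pairs gave -0.419 to 0.102 between 24 and 48 h, -0.12 between 12 and 48 h, and -0.209 to 0.209 between 12 and 24 h. For 24 h against 12 h 0 of 17 were called under each alternative run.

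The set itself depends on the limits. It held 3 genes with an untreated mean below 4, 28 below 5, 44 with a rise of at least 1 and 4 with a rise of at least 2. Without single untreated or 96 h arrays it held 17 to 19, of which 12 to 16 were shared with the 17. Without 96 h replicate 1 it lost Atp6v0e2, Lrrc51, Magef1, Pappa and Zfp113, and without 96 h replicate 2 it lost Bbs4, Clec2d and Slpi. In all alternatives to the fit, signal near the background limits what can be called.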

Other observations

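The other lists fixed for the study hold none of the 17 genes. They do hold the genes that met the values of the rule but were left out by name. Ptprv is in the list of p53 targets and Dcn in that of growth arrest and FOXO targets. Ces2e is in the list of retinoid, steroid and xenobiotic enzymes. All of these are included in the counts below. The counts show what else had moved on the same arrays (limma fit of all 12 arrays, adjusted p under 0.05, 96 h against untreated cells). Of 33 p53 targets measured, 26 were called higher and 1 lower, with a median difference of 1.25 against 0.00 over all genes. Growth arrest and FOXO targets had 6 of 27 called higher and 0 lower, with a median of 0.06. Genes of the ATF4 and amino acid response had 6 of 27 higher and 9 lower at 96 h. Their median from 24 to 48 h was 0.62, against -0.01 over all genes. Of all genes, 11.8% were called higher and 10.1% lower at 96 h, shares not matched for the untreated level of these lists.

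Lists of secreted and surface proteins, and that of retinoid, steroid and xenobiotic enzymes, went both ways or had few calls. Of 57 cell surface receptors 9 were called higher and 5 lower, of 66 secreted growth factors and hormones 5 and 3, of 34 matrix proteoglycans and glycoproteins 2 and 3, of 21 complement and acute phase genes 3 and 0, and of 41 retinoid, steroid and xenobiotic enzymes 6 and 4. Over all genes 11.8% were called higher and 10.1% lower, shares that are not matched for the untreated level of any of these lists.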
